A study of Mus musculus with 10 samples.

Results

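The 10 genes described here carry fatty acids into the hepatocyte and activate them: the transporter Cd36, the fatty acid transport proteins (FATP) Slc27a2, Slc27a4 and Slc27a5, the long-chain acyl-CoA synthetases (ACSL) Acsl1, Acsl3, Acsl4 and Acsl5, and the fatty acid binding proteins (FABP) Fabp1 and Fabp4. They were chosen by name as a pathway, and all 10 were found among the 18055 genes listed in any library and passed the filter on low counts. The libraries came from primary hepatocytes of wild-type C57BL/6 mice, isolated by collagenase perfusion, plated in DMEM with serum and, per the methods, moved to serum-free medium before treatment. There were 5 groups of 2 libraries each. Vehicle cells received neither free fatty acid (FFA) nor drug, PA cells received 200 µM palmitate for 24 h, and LA cells received 12 µM linoleate for 24 h. PA+NTP and LA+NTP cells received the same FFA after 1 h of pretreatment with Neurotropin (NTP), a drug given against chronic pain. The labels give neither the NTP dose nor the number of mice behind each library, and no library had NTP without FFA. Because PA and LA were given at different concentrations, the kind of fatty acid and its dose cannot be told apart in any comparison of PA with LA.

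Long-chain fatty acids reach hepatocytes through the membrane with the help of CD36 and of FATPs, several of which are themselves acyl-CoA synthetases. ACSL enzymes then attach coenzyme A, which traps the fatty acid in the cell and commits it to triglyceride or phospholipid synthesis or to β-oxidation. FABPs bind fatty acids in the cytosol; FABP1 is the abundant form of liver, and FABP4 is best known from adipocytes, macrophages and capillary endothelium.

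Library depth ranged from 13142588 to 60046937 expected counts, a 4.57-fold span. The 8 hepatocyte markers were detected in all 10 libraries, with albumin at an FPKM (fragments per kilobase of transcript, scaled to library size) of 1928.73 to 2818.48. Other markers of the list were far lower, such as Cps1 (1.52 to 4.61) and Tat (3.64 to 8.51). Adipoq, Lep, Plin1 and Retn, which define adipocytes, were at 0 in every library. The libraries also differed by base composition: the Spearman correlation across genes between GC content and a gene's deviation from its mean over the libraries was positive in Vehicle, PA+NTP and LA+NTP libraries (0.348 to 0.575) and negative in PA and LA libraries (-0.576 to -0.485). It therefore moved with every comparison of FFA with Vehicle or of NTP with FFA alone, and had the same sign on both sides of PA against LA and of PA+NTP against LA+NTP. Its size still differed within both of these pairs. It was -0.485 and -0.487 in PA beside -0.572 and -0.576 in LA. With NTP it was 0.418 and 0.348 in PA+NTP beside 0.575 and 0.547 in LA+NTP. Results below are given with and without removal of this trend where the removal ended a call.

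Levels of the 10 genes were first ordered within each group, on the FPKM scale, which corrects for transcript length. Acsl5 was highest in all 5 groups, followed by Acsl4 and then Cd36, with no overlap of libraries between these neighbours. Over the 10 libraries Acsl5 ranged from 88.14 to 131.04 FPKM, Acsl4 from 36.61 to 66.25 and Cd36 from 24.11 to 40.66. Slc27a5 was lowest in every group, between 2.73 and 5.67 FPKM, although its libraries overlapped those of Fabp4 in PA+NTP and LA+NTP. The middle places changed between groups. Slc27a2 and Acsl1 did not overlap in Vehicle, LA and LA+NTP, where Slc27a2 was higher, and overlapped in PA and PA+NTP. The widest spread belonged to Fabp1, whose highest library was 10.56 times its lowest, and the narrowest to Acsl1, at 1.19 times.

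**Figure D1:**
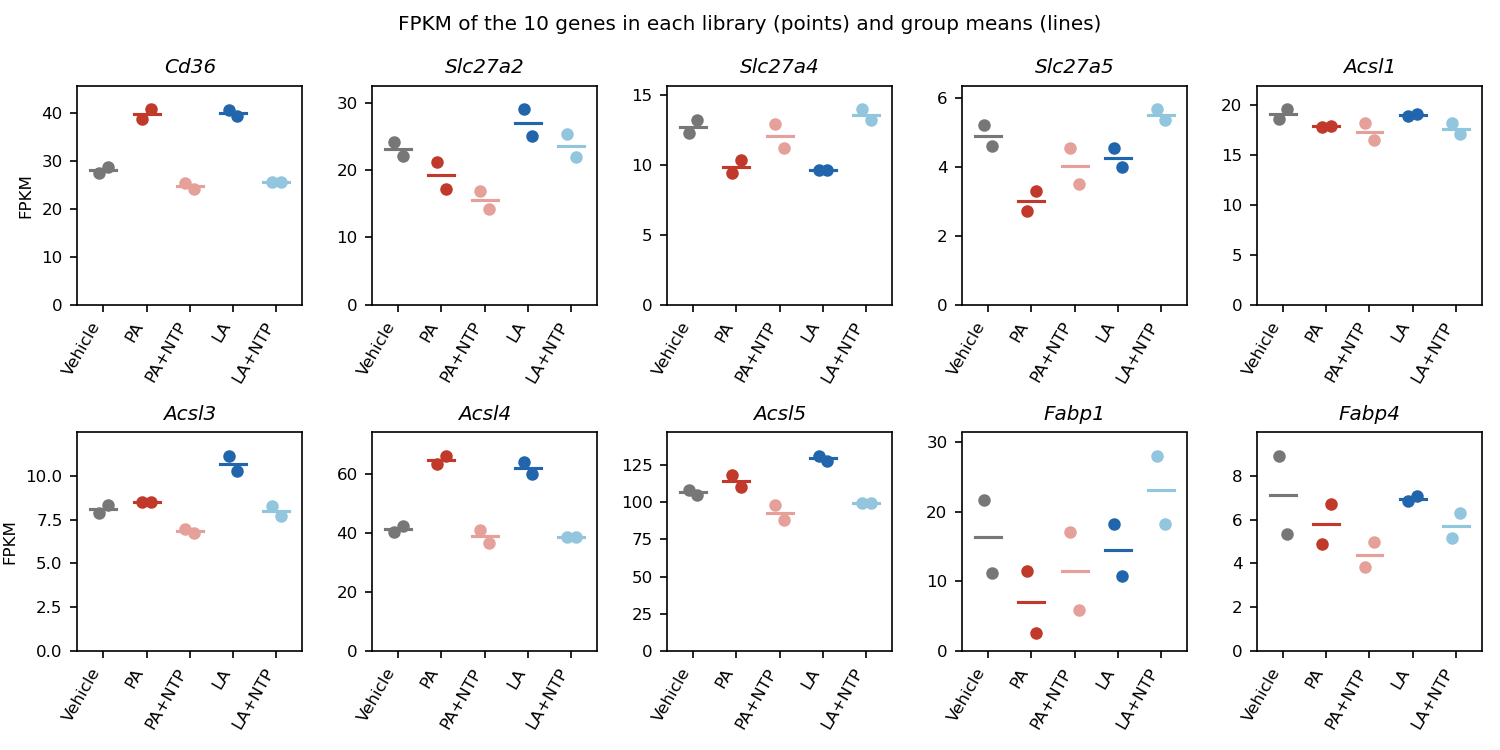
FPKM (y axis, from 0) of each of the 10 genes in the 5 groups (x axis), with a point for each library and a line at the group mean of 2 libraries. Cd36 and Acsl4 stand high in PA and LA alone, Slc27a2 is lower in both PA groups than in the matching LA groups, and the paired points of Fabp1 lie far apart in every group.

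Palmitate and linoleate were then compared directly, to ask whether the saturated and the polyunsaturated FFA left the uptake and activation genes at different levels. A gene was called when its edgeR quasi-likelihood p, adjusted over all 14097 genes tested (Benjamini-Hochberg), was under 0.05 and its fold change was at least 1.5. None of the 10 genes was called between PA and LA, against 3.23% of all genes tested. Before adjustment, 5 of the 10 had p under 0.05, as had 3492 of the 14097 genes tested. DESeq2 and limma on log2 FPKM also called 0 of the 10. With no limit on fold, 2 of 10 passed, Slc27a2 and Acsl3, both lower in PA, against 11.1% of all genes. The median log2 difference of the 10 genes was -0.21, beside 0.013 over all genes tested. Between PA+NTP and LA+NTP, which share no library with the first pair, 1 of 10 was called, Slc27a2, against 3.82% of all genes, and 3 of 10 passed with no limit on fold (Slc27a2, Slc27a5 and Acsl3), against 14.8%. All 3 were lower with PA.

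**Figure D2:**
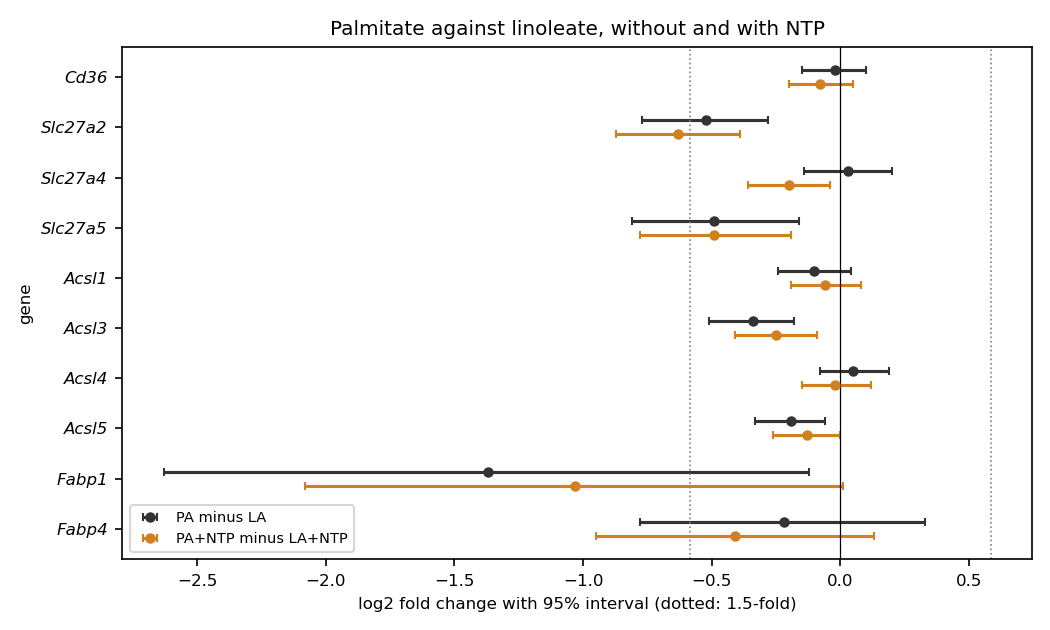
Log2 fold change (x axis) of each gene (y axis) for PA minus LA and for PA+NTP minus LA+NTP, with 95% intervals from the edgeR fit and dotted lines at 1.5-fold. The Slc27a2 interval lies below 0 in both comparisons, at -0.77 to -0.28 and at -0.87 to -0.39, while those of Cd36 and Acsl4 span 0 in both and stay inside the dotted lines.

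Slc27a2 encodes FATP2, a liver FATP that also activates very long-chain fatty acids. Its FPKM was 24.19 and 22.16 in Vehicle, 21.23 and 17.22 in PA, 29.01 and 25.02 in LA, 16.88 and 14.2 in PA+NTP, and 25.37 and 21.92 in LA+NTP. The PA libraries lay below both Vehicle and LA libraries, the LA libraries lay above Vehicle, and the PA+NTP libraries were the lowest of all; the LA+NTP libraries overlapped those of Vehicle and LA. The log2 difference was -0.52 between PA and LA (95% interval -0.77 to -0.28, adjusted p = 0.00954) and -0.63 between PA+NTP and LA+NTP (-0.87 to -0.39, adjusted p = 0.00181), which is a 1.552-fold lower level. The adjusted p of the first difference reached 0.156 without PA replicate 2 and 0.116 without LA replicate 1, and the fold passed 1.5 without PA replicate 1 (-0.672) or LA replicate 2 (-0.631). The second difference fell short of 1.5-fold without PA+NTP replicate 2 (-0.535) or LA+NTP replicate 1 (-0.53) and by limma on log2(FPKM + 1) (-0.577), and it was called with the GC trend removed (-0.64, adjusted p = 0.00196). Replicate 1 was the higher library in all 5 groups, so fits that leave out 1 library compare unlike replicate numbers. With the replicate number as a block, edgeR gave -0.51 (adjusted p = 0.000182) for the first difference. The second was -0.64 (adjusted p = 1.61e-05) in that fit. The labels state no pairing by these numbers.

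Slc27a5 encodes FATP5, the bile acyl-CoA synthetase of liver. Its FPKM was 5.22 and 4.6 in Vehicle, 2.73 and 3.31 in PA, 4.54 and 4.0 in LA, 4.54 and 3.5 in PA+NTP, and 5.67 and 5.37 in LA+NTP. PA libraries were below all others, and neither PA against LA nor PA+NTP against LA+NTP overlapped. The log2 difference was -0.49 in both, with adjusted p = 0.053 for PA against LA (95% interval -0.81 to -0.16) and 0.0286 for PA+NTP against LA+NTP (-0.78 to -0.19). Slc27a4 encodes FATP4, which acts on long and very long chains. Its PA (9.42 and 10.36) and LA (9.62 and 9.66) libraries overlapped, with a log2 difference of 0.03 (95% interval -0.14 to 0.20); PA+NTP was at 12.94 and 11.26 and LA+NTP at 13.99 and 13.25, a difference of -0.20 (-0.36 to -0.04, adjusted p = 0.0946).

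Hepatocyte markers stood lower with PA than with LA, as Slc27a2 and Slc27a5 did. With NTP the marker sum was higher than with each FFA alone, but the 8 markers did not rise as a list. With PA their median log2 change with NTP was -0.09 and 0 were called, beside 13.9% of all genes. With LA it was 0.05 and 1 was called higher, beside 19.3% of all genes called. Slc27a5 was higher in mean FPKM with NTP, at 4.02 in PA+NTP beside 3.02 in PA and 5.52 in LA+NTP beside 4.27 in LA. Slc27a2 was instead lower in mean with NTP. The summed FPKM of the 8 markers, most of it from Alb and Apoa1, all 8 above 0 in each library, was 2480 to 2700 in PA and 3440 to 3470 in LA, 2950 to 3250 in PA+NTP and 3960 to 4170 in LA+NTP, and 3380 to 3540 in Vehicle. Of the 8 markers 2 were called lower in PA than in LA and 4 in PA+NTP than in LA+NTP. Over all 14097 genes tested, 288 were called lower in the first pair and 345 in the second. The summed FPKM of 8 macrophage markers stood the other way, at 218 to 252 in PA against 139 to 143 in LA, and at 279 to 312 in PA+NTP against 193 to 206 in LA+NTP. Cd68 made up most of that sum (121.56 to 287.31), while the Kupffer cell genes Clec4f and Vsig4 stayed at or under 0.3 and Vsig4 was at 0 in 1 library. Of the 7 macrophage markers tested, 2 were called higher and 1 lower in PA, and likewise with NTP. Among all 14097 genes, 167 were called higher in PA than in LA, and 194 in the NTP pair. Stellate markers summed to 22.9 to 23.0 in PA and 25.9 to 26.9 in LA, and cholangiocyte markers, nearly all Spp1, to 407 to 529 and 637 to 678. The part of any marker list in the differences was not tested. In these bulk samples fewer cells of a type and less RNA per cell cannot be told apart.

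The ACSL genes differed little between PA and LA. Acsl3, an ACSL of the endoplasmic reticulum and lipid droplets, was at 8.51 and 8.52 FPKM in PA and at 11.13 and 10.25 in LA, without overlap. PA+NTP libraries (6.97 and 6.72) also lay below LA+NTP libraries (8.28 and 7.72), and Vehicle was at 7.89 and 8.34. The log2 difference was -0.34 between PA and LA (95% interval -0.51 to -0.18, adjusted p = 0.0121) and -0.25 between PA+NTP and LA+NTP (-0.41 to -0.09, adjusted p = 0.0405), so neither reached 1.5-fold. Without 1 library the adjusted p of the PA to LA difference ranged up to 0.122, the value without LA replicate 1. Acsl3 shares 4.22% of its 31-base words with Utp14b, whose exons overlap it on the same strand, so its counts could be split between these genes.

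Acsl5, a mitochondrial and endoplasmic reticulum ACSL, was the most abundant member. Its FPKM was 118.47 and 109.89 in PA and 131.04 and 127.66 in LA, with no overlap, and 97.86 and 88.14 in PA+NTP beside 99.74 and 99.29 in LA+NTP. The log2 differences were -0.19 (95% interval -0.33 to -0.06, adjusted p = 0.0613) and -0.13 (-0.26 to 0.00, adjusted p = 0.193). Acsl1, the major ACSL of oxidative tissues and liver, stayed between 16.48 and 19.56 FPKM in all 10 libraries, and its difference between PA and LA was -0.10 (-0.24 to 0.04). For Acsl4, which prefers arachidonate and other polyunsaturated fatty acids, PA (63.52 and 66.25) and LA (64.05 and 60.12) libraries overlapped; the difference was 0.05 (-0.08 to 0.19), and with NTP it was -0.02 (-0.15 to 0.12). The intervals of Acsl1 and Acsl4 thus allow less than a 1.5-fold difference in either direction.

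Cd36, the fatty acid translocase and a scavenger receptor, was at 38.64 and 40.66 FPKM in PA and at 40.53 and 39.34 in LA. The libraries overlapped, and the log2 difference was -0.02 (95% interval -0.15 to 0.10), or a fold of 0.984 with bounds 0.904 and 1.071. With NTP the libraries were at 25.4 and 24.11 (PA+NTP) and at 25.55 and 25.58 (LA+NTP), a difference of -0.08 (-0.20 to 0.05).

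Fabp1 had the largest estimated difference between PA and LA and the least certain. Its FPKM was 21.66 and 11.14 in Vehicle, 11.48 and 2.65 in PA, 18.28 and 10.83 in LA, 17.1 and 5.87 in PA+NTP, and 27.98 and 18.22 in LA+NTP. Replicate 2 was the lower library in all 5 groups, and PA and LA libraries overlapped while PA+NTP and LA+NTP libraries did not. The counts behind these values ran from 48 to 508. The log2 difference was -1.37 between PA and LA (95% interval -2.63 to -0.12, adjusted p = 0.161) and -1.03 between PA+NTP and LA+NTP (-2.08 to 0.01, adjusted p = 0.181). The first ran from -2.492 (adjusted p = 0.0331) without PA replicate 1 to -0.372 (adjusted p = 0.796) without PA replicate 2, and the second from -1.961 (adjusted p = 0.0283) without PA+NTP replicate 1 to -0.471 (adjusted p = 0.601) without PA+NTP replicate 2, so which library was kept decided whether either was called. Both were called in a fit without the filter on low counts (adjusted p = 4.52e-10 and 1.79e-08). The log2 differences in that fit were -1.374 and -1.036, close to those above, so what changed was the estimate of the spread. This holds for the other Fabp1 calls of that fit given below.

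Fabp4 was listed at low levels in every library, from 40 to 235 counts. Its FPKM was 8.91 and 5.33 in Vehicle, 4.9 and 6.72 in PA, 6.83 and 7.07 in LA, 3.82 and 5.0 in PA+NTP, and 5.15 and 6.3 in LA+NTP. Vehicle libraries overlapped those of PA, LA and LA+NTP. The log2 difference was -0.22 between PA and LA (95% interval -0.78 to 0.33, adjusted p = 0.655) and -0.41 with NTP (-0.95 to 0.13, adjusted p = 0.319). Beside it, the summed FPKM of 8 endothelial markers was 30.8 to 32.6 in PA and 32.3 to 35.2 in LA, while 4 of the 5 adipocyte markers were at 0 and the remaining gene, Cfd, did not pass 0.22. The sum of 8 macrophage markers, mostly Cd68, was instead higher in PA (218 to 252) than in LA (139 to 143).

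Upstream sequence is shown for Slc27a2 and Fabp1, the members with the largest estimated PA to LA differences, and for Cd36, which stood alike in PA and LA. The RefSeq promoter table used here (GRCm38.p6) matched 8 of the 10 members, with 9 windows in all. The 250 bases before each start were searched on both strands for AGGTCA, the half-site recognised by nuclear receptors such as PPARα with RXR; its other strand reads TGACCT. Capitals mark the match, and all matches in these windows were TGACCT.
Slc27a2, chr2:126552774-126553023, plus strand: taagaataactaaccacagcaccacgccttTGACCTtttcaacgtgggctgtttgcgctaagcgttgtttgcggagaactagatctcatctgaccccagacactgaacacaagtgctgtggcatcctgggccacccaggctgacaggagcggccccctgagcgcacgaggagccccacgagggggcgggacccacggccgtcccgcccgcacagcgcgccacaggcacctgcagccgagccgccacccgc
Fabp1, chr6:71199629-71199878, plus strand: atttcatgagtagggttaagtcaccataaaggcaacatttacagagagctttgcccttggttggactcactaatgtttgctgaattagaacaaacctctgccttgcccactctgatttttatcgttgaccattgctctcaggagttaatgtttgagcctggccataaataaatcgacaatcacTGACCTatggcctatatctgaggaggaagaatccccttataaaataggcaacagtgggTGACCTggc
Cd36, chr5:17835897-17836146, minus strand: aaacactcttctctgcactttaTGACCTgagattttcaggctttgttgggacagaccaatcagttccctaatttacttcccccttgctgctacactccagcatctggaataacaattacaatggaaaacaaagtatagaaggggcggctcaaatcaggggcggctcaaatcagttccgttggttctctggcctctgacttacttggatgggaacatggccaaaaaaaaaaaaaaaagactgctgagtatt
The match began at -220 from the start in Slc27a2, at -67 and -9 in Fabp1, and at -228 in Cd36. These were 3 of the 9 member windows, and 14% of 32851 RefSeq windows of the same length hold the letters. The Cd36 start lies inside the gene, which has further starts upstream. A match of this length describes the sequence and is not evidence of binding. The windows shown are the 3 that held it, and those of Acsl1, Acsl3, Acsl4, Acsl5 and Slc27a4 held none. Any relation of the match to the PA to LA differences was not tested.

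Each FFA was next compared with Vehicle, and these comparisons share the Vehicle libraries. With PA, 2 of 10 members were called, against 14.9% of all genes: Acsl4 rose and Slc27a5 fell. With LA, 1 of 10 was called, against 10.6%: Acsl4 rose. With no limit on fold, 4 of 10 passed with PA, against 45.5%, and 5 of 10 with LA, against 41.3%.

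Acsl4 was at 40.27 and 42.36 FPKM in Vehicle, at 63.52 and 66.25 in PA and at 64.05 and 60.12 in LA. Neither FFA group overlapped Vehicle. Its log2 change was 0.68 with PA (SE 0.06, adjusted p = 2.37e-06) and 0.63 with LA (SE 0.06, adjusted p = 6.48e-06). Cd36, at 27.42 and 28.67 in Vehicle, showed the same separation just under the 1.5-fold limit, with log2 changes of 0.53 with PA (SE 0.06, adjusted p = 7.87e-06) and 0.55 with LA (SE 0.06, adjusted p = 8.08e-06). These are the members whose transcripts have the lowest GC content, 39.6% for Cd36 and 40.1% for Acsl4. With the GC trend removed the changes of Acsl4 were 0.30 (adjusted p = 0.0017) and 0.21 (adjusted p = 0.0221) and those of Cd36 0.13 (adjusted p = 0.0854) and 0.12 (adjusted p = 0.149), so no call was left. The Acsl4 call with LA also ended, at 0.584, when libraries were scaled by their totals alone.

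Slc27a5 changed by -0.63 on the log2 scale with PA (95% interval -0.96 to -0.31, adjusted p = 0.00353) and by -0.15 with LA (-0.46 to 0.16, adjusted p = 0.454). The PA change ended as a call with the GC trend removed (-0.47, adjusted p = 0.0255) and without Vehicle replicate 1 (-0.544) or PA replicate 1 (-0.533). Slc27a4, at 12.29 and 13.21 FPKM in Vehicle and with the highest GC content of the 10 (54.5%), had log2 changes of -0.33 with PA (adjusted p = 0.00401) and -0.36 with LA (adjusted p = 0.00222), and of -0.12 and -0.16 with the GC trend removed (adjusted p = 0.278 and 0.171). In LA, Acsl3 (0.45, adjusted p = 0.000411) and Acsl5 (0.32, adjusted p = 0.000839) also passed with no limit on fold; in PA they were at 0.10 (adjusted p = 0.315) and 0.13 (adjusted p = 0.106). With the GC trend removed the LA values were 0.11 for Acsl3 (adjusted p = 0.34) and 0.15 for Acsl5 (adjusted p = 0.115). For both genes the direct test of PA against LA is the one given above. Slc27a2 was at -0.25 with PA (-0.50 to 0.00, adjusted p = 0.0911) and at 0.27 with LA (0.03 to 0.51, adjusted p = 0.0678). Fabp1 was at -1.46 with PA (-2.73 to -0.19, adjusted p = 0.0586), and passed both limits in 4 of the 10 fits that left out 1 library and in the fit without the filter on low counts (adjusted p = 7.19e-12). An edgeR fit of the PA and Vehicle libraries alone also called it (-1.453, adjusted p = 0.0242).

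NTP was compared with FFA alone within each FFA. Acsl4 and Cd36 were called and fell in both, which makes 2 of 10 members in PA+NTP against PA, beside 13.9% of all genes, and 2 of 10 in LA+NTP against LA, beside 19.3%. With no limit on fold, 6 of 10 passed with PA, against 44.7%, and 5 of 10 with LA, against 51.5%.

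Acsl4 was at 41.25 and 36.61 FPKM in PA+NTP and at 38.57 and 38.87 in LA+NTP, below all PA and LA libraries; PA+NTP overlapped Vehicle, and LA+NTP lay just below it. Its log2 change was -0.79 with PA (SE 0.06, adjusted p = 8.37e-07) and -0.72 with LA (SE 0.06, adjusted p = 7.66e-07). Cd36 in all 4 NTP libraries (24.11 to 25.58) lay below Vehicle as well as below PA and LA, with changes of -0.74 (SE 0.06, adjusted p = 6.81e-07) and -0.69 (SE 0.06, adjusted p = 4.82e-07). With the GC trend removed these changes were -0.40 and -0.22 for Acsl4 (adjusted p = 0.000238 and 0.0112) and -0.34 and -0.17 for Cd36 (adjusted p = 0.000523 and 0.0287), each under 1.5-fold and in the same direction.

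Of the other members, Acsl3 (-0.37 with PA and -0.46 with LA) and Acsl5 (-0.35 and -0.42) were lower with NTP at adjusted p between 6.02e-05 and 0.00154, and Slc27a4 was higher (0.22, adjusted p = 0.0325, and 0.46, adjusted p = 0.000185), all under 1.5-fold. With the GC trend removed Acsl3 was at -0.05 and -0.06 (adjusted p = 0.642 and 0.549) and Slc27a4 at 0.01 and 0.19 (adjusted p = 0.958 and 0.0712), while Acsl5 was at -0.21 and -0.22 (adjusted p = 0.0242 and 0.0203). Slc27a2 passed with no limit on fold with PA (-0.35, adjusted p = 0.0251), but not with the GC trend removed (-0.28, adjusted p = 0.0914), and with LA it was at -0.24 (adjusted p = 0.0839). Fabp1 had estimates of 0.94 with PA (-0.33 to 2.21, adjusted p = 0.223) and 0.60 with LA (-0.43 to 1.62, adjusted p = 0.321); a fit without the filter on low counts called both (adjusted p = 1.81e-05 and 0.000721).

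The NTP change with PA was also tested against the NTP change with LA, by an interaction term. None of the 10 members was called, and edgeR called 0% of all genes tested; before adjustment, p was under 0.05 for 0 of the 10 members and for 1029 of all genes. Calls by DESeq2 numbered 5, and limma called 5 with a pseudocount of 1 and 3 with 0.1, none of them a member. The interaction for Cd36 was -0.05 (95% interval -0.23 to 0.12) and that for Acsl4 -0.07 (-0.26 to 0.12), and for Fabp1 the interval ran from -1.30 to 1.98.

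**Figure D3:**
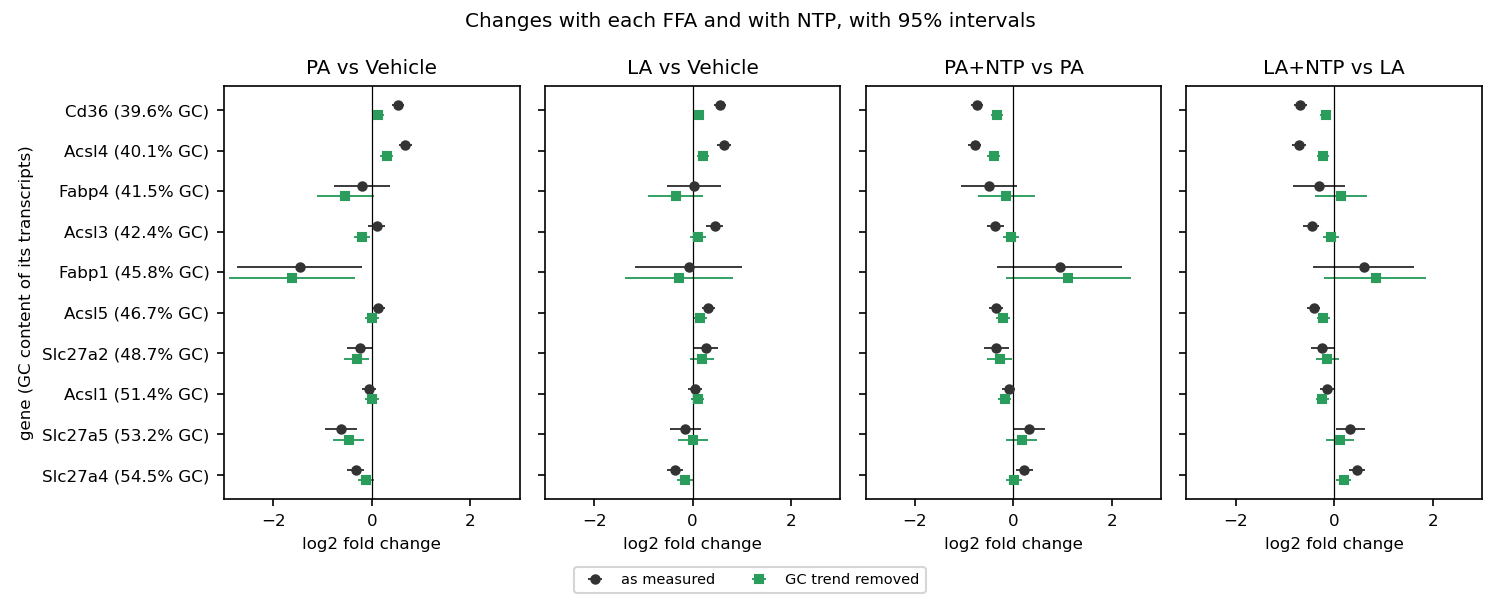
Log2 fold change (x axis, 95% intervals) of the 10 genes, ordered down the y axis from lowest to highest GC content of their transcripts, for PA and LA against Vehicle and for NTP against each FFA alone; circles are as measured and squares have the GC trend removed. The Cd36 and Acsl4 points at the top move toward 0 in all 4 panels when the trend is removed, from 0.53 to 0.13 for Cd36 in PA against Vehicle.

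Within the ACSL family the composition of summed FPKM shifted along with Acsl4. The family sum was 175 in both Vehicle libraries, 203 to 208 in PA, 217 to 225 in LA, 148 to 164 in PA+NTP and 163 to 165 in LA+NTP. Acsl4 made up 23.0% to 24.1% of it in Vehicle, 30.5% to 32.7% in PA and 27.7% to 28.4% in LA, with no overlap among the 3 groups, and 23.4% to 25.1% in the NTP groups. Acsl5 remained the largest component in every library, from 54.2% in PA to 61.9% in Vehicle. The sum was larger in LA than in PA, and the Acsl4 share was larger in PA; these shares were not tested. They rest on FPKM as deposited, and the Acsl4 change they follow is smaller with the GC trend removed, as given above.

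**Figure D4:**
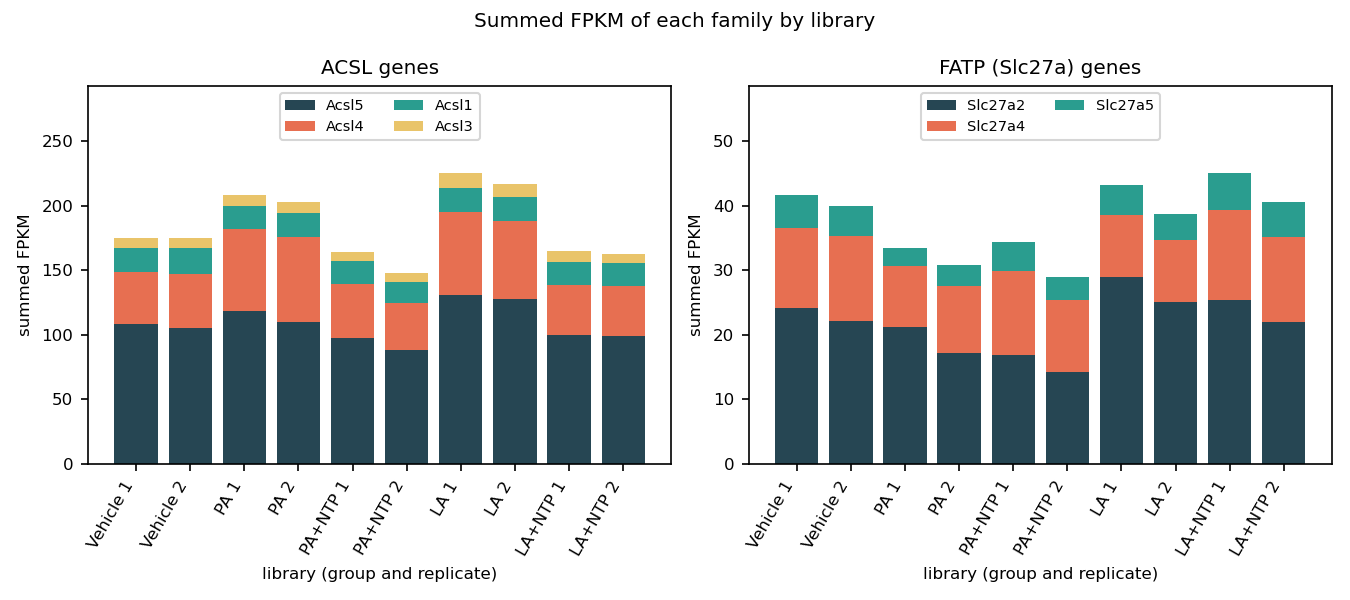
Summed FPKM (y axis, from 0) of the ACSL members (left) and FATP members (right) in each of the 10 libraries (x axis), with a colour for each gene. The ACSL bars are tallest in LA (217 to 225) and PA (203 to 208), and most of the FATP height comes from Slc27a2 and Slc27a4.

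Other genes of the pathway were examined as 5 lists, whose counts of calls between PA and LA stand beside the 3.23% of all genes called. Of 27 further uptake and activation genes, 19 were tested between PA and LA, and 1 was higher and 2 lower in PA at the call limits. The higher gene was Fabp5, an epidermal-type FABP that liver also holds, at 26.94 and 25.77 FPKM in PA and 17.43 and 16.89 in LA (log2 difference 0.60, adjusted p = 0.000743). The lower genes were Acsm1, a medium-chain acyl-CoA synthetase, at 0.67 and 0.79 in PA and 1.73 and 1.41 in LA (-1.09, adjusted p = 0.0142), and Fabp7, which was named after its values were seen and is too low for the naming limit of 1 FPKM (group means 0.43 and 1.71; -2.12, adjusted p = 0.0119). The other members of the family lay well apart in level: Acsf2 reached 44.34 FPKM and Got2, the plasma membrane FABP that is also mitochondrial aspartate aminotransferase, 167.71, while Slc27a6 and Acsl6 stayed at or under 0.18. Among 17 acyl-CoA binding and thioesterase genes tested, Baat, which conjugates bile acids, was lower in PA (4.23 and 3.84 beside 9.52 and 7.64; -1.12, adjusted p = 0.00261), and Acot2, a mitochondrial thioesterase, was higher (8.42 and 12.16 beside 6.14 and 6.61; 0.72, adjusted p = 0.0158). The calls of Acsm1 and Acot2 ended in 3 fits that left out 1 library, that of Fabp5 in 2 and that of Baat in 1.

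Of 30 targets of PPARα, the nuclear receptor that fatty acids activate, 0 were higher and 2 lower in PA than in LA. They were Acaa1b, a peroxisomal thiolase (5.13 and 4.76 FPKM in PA beside 11.7 and 10.54 in LA; -1.20, adjusted p = 0.000268), and Aldh3a2, which oxidises fatty aldehydes (63.95 and 64.2 beside 98.64 and 96.31; -0.62, adjusted p = 5.73e-05). The list's median was -0.16 between PA and LA, beside 0.013 over all genes. Of 14 SREBP-1c targets tested, 2 desaturases were lower in PA: Scd1 (201.28 and 212.38 beside 436.51 and 427.79; -1.08, adjusted p = 1.7e-07) and Fads2 (33.45 and 40.43 beside 53.67 and 58.44; -0.60, adjusted p = 0.000335). The Scd1 libraries in Vehicle were at 444.23 and 459.14, close to LA. Of 20 regulators that sense or relay fatty acids, 1 was higher in PA, the transcription factor Cebpb (0.73, adjusted p = 0.00336), and 0 were lower. The call of Cebpb ended without PA replicate 2, and that of Fads2 without PA replicate 1 or LA replicate 2, while those of Acaa1b, Aldh3a2 and Scd1 were kept in all 10 fits that left out 1 library.

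In PA+NTP against LA+NTP, 6 of these 9 named genes were called again in the same direction, with log2 differences of -1.12 for Acsm1, -1.23 for Baat, -1.35 for Acaa1b, -0.79 for Aldh3a2, -1.19 for Scd1 and -0.62 for Fads2. Fabp5 (0.39), Cebpb (0.35) and Acot2 (0.05) were not called there. With the GC trend removed Fads2 was no longer called in that pair (-0.56) and Cebpb was (0.61, adjusted p = 0.00128), while the calls of all 9 between PA and LA were kept. The rebuilt NOISeq rule called none of the 9 named genes between PA and LA, Acsm1 (-0.569) and Acot2 (0.595) were not called by limma on log2(FPKM + 1), and Fads2 (-0.584) ended as a call with scaling by library totals. These genes were named for their PA to LA difference, so that comparison is no test of them. The NTP pair uses other libraries. It is not free of the choice either, because the lists were chosen with earlier results of these data known. Its estimate of the spread is also shared over all groups.

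**Figure D5:**
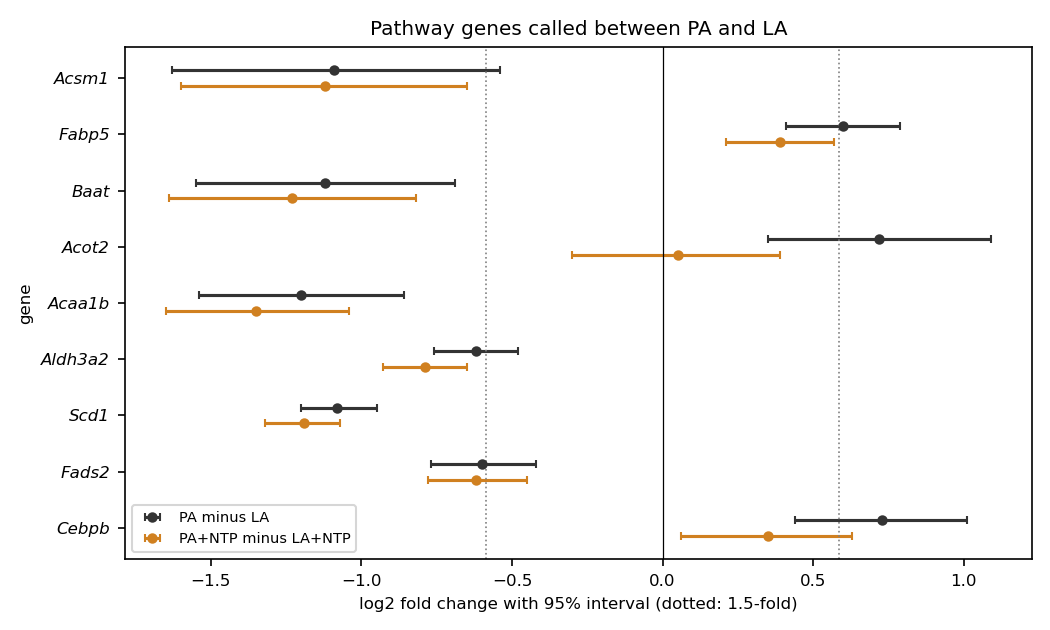
Log2 fold change (x axis, 95% intervals, dotted lines at 1.5-fold) of the 9 pathway genes (y axis) named from the lists, for PA minus LA and for PA+NTP minus LA+NTP. The 6 genes on the left of 0 lie there in both comparisons, whereas Acot2 moves from 0.72 to 0.05.

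The same lists were counted in the other comparisons, beside 14.9% of all genes called with PA and 10.6% with LA against Vehicle, and 13.9% (PA) and 19.3% (LA) with NTP. Against Vehicle, 0 of the 19 further uptake and activation genes were higher and 2 lower with PA, and 1 was higher and 1 lower with LA. PPARα targets counted 1 higher and 3 lower of 30 with PA and 0 higher and 1 lower with LA. SREBP-1c targets counted 0 higher and 2 lower of 14 with PA and 0 higher and 1 lower with LA. The 17 acyl-CoA binding and thioesterase genes held 1 lower with PA and 1 higher with LA. Among the 20 regulators 3 were lower with PA and 5 with LA, and with NTP 5 were higher in each FFA and 1 was lower with PA. With NTP, SREBP-1c targets counted 1 higher with PA and 4 higher with LA and 0 lower in either. The acyl-CoA binding and thioesterase genes counted 0 higher and 3 lower with PA, and 1 higher and 2 lower with LA. Further uptake and activation genes counted 1 higher and 1 lower with PA, and 2 higher and 1 lower with LA. For PPARα targets it was 1 higher and 1 lower with PA, and 1 higher and 0 lower with LA. All these counts come from comparisons that moved with the GC trend.

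For the members with the widest range of group means, the genes with the most similar pattern over the 10 libraries were sought among 14097 genes, by the root mean square difference of centred log2 CPM (counts scaled to library size). For Slc27a2, whose group means spanned 0.87 on the log2 scale, these were Kynu (0.077) and Glcci1 (0.078). For Slc27a5 (span 0.84) they were Nol4l (0.071) and Peg13 (0.091). For Fabp1 (span 1.97) they were Uroc1 (0.303) and Rdh7 (0.304), which is a looser likeness.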

How the data were processed

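RNA was sequenced from 10 libraries of primary mouse hepatocytes, 2 in each of 5 groups. According to the methods and the processing notes, the authors aligned reads with HISAT and Bowtie2 to mm10 and quantified genes with RSEM; versions, annotation and strand setting are not stated in the sources used here. The deposited expected counts are RSEM estimates without normalization between libraries, and 71.7% to 76.7% of those in a library are whole numbers within 1e-06. The deposited FPKM values were scaled by the authors for length and library size. A library lists 15211 to 16318 genes, none below 0.01 FPKM, and a gene missing from it was taken as 0. Of 18055 gene IDs, 17998 were matched by ID to RefSeq GRCm38.p6 and 11 by accession.

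After rounding, expected counts entered edgeR 4.0.16 (R 4.3.3): TMM scaling, filterByExpr (14097 genes tested, 3958 dropped), 5 groups as a factor over all 10 libraries, glmQLFit and glmQLFTest, and Benjamini-Hochberg adjustment. Genes were called at adjusted p under 0.05 and a fold of at least 1.5 in 7 comparisons. A rule rebuilt after NOISeq, the method the study names, was run on FPKM as an alternative (probability of at least 0.95). It is not the NOISeq package and may differ from the study's own run. In the simulation described below, run there on CPM, it recovered 88 of 200 changed genes, against 187 by edgeR, so its few calls carry little weight. Standard errors and 95% intervals come from the edgeR fit. The GC trend was removed from each library by a loess curve (span 0.4) of deviation on GC content, known for 95.1% of genes tested. Other alternatives were DESeq2 1.42.0, limma 3.58.1 on log2(FPKM + 1) and log2(FPKM + 0.1), other filters and scalings, fits of only the groups compared, a replicate block, and each library left out. In data simulated for PA against LA with 13931 genes, 187 of 200 changed genes were recovered with 8 false calls. With a GC trend planted in the PA libraries only (13913 genes), false calls were 571, and 5 after its removal. In the real libraries the trend had the same sign in PA and LA and the other sign in Vehicle and NTP groups. So the simulation cannot show whether removal also takes away real change with FFA or NTP. Replicate libraries differed by more than sampling noise. Nothing says that they came from separate mice, so p-values measure the spread between libraries, which may be technical. An exact permutation test of 2 libraries against 2 cannot go below p = 0.333, so none was used.

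Named were all 10 members; from each list the 3 called genes with the largest PA to LA change among those whose mean FPKM was 1 or more, or fewer; and for the 3 members with the widest range of group means the 2 most alike genes. The members and lists were chosen with earlier results of these data known. A gene of the PPARα list is not reported here.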

Additional observations from a re-analysis of the deposited data

How the results depend on the processing

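Of the fold changes of single genes recomputed under 21 alternatives, 1336 kept direction and side of the threshold, 49 lost a call, 39 gained a call and 25 changed sign. Most of these fold changes were not called in the edgeR fit to begin with. Only the minority called there could lose a call, so the pooled numbers do not measure how stable the calls were. With the GC trend removed, genes called were 1222 (PA against Vehicle), 497 (LA against Vehicle), 874 (PA+NTP against PA) and 884 (LA+NTP against LA), with 0 members called in each. In this order, 2, 1, 3 and 4 members had an adjusted p under 0.05, beside 4496, 2685, 3982 and 4101 of all 14097 genes. An unadjusted p under 0.05 was found for 6, 3, 5 and 5 members, beside 5928, 4496, 5548 and 5616 of all genes. Signs that turned there were those of Cd36 (0.011, PA against LA), Acsl1 (0.005), Acsl3 (-0.205) and Acsl5 (-0.003) in PA against Vehicle, Slc27a5 (0.007) and Fabp4 (-0.34) in LA against Vehicle, and Fabp4 (0.13) in LA+NTP against LA. Scaling by library totals gave 0 members in LA against Vehicle, 0.011 for Acsl4 in PA+NTP against LA+NTP, and -0.007 for Acsl1 and -0.014 for Fabp4 in LA against Vehicle; it also changed the split of higher and lower calls, from 498 and 1002 to 360 and 1197 in LA against Vehicle and from 1232 and 721 to 1492 and 518 in PA+NTP against PA.

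limma on log2(FPKM + 1), which understates low genes, called 252 genes in PA against LA, 295 in PA+NTP against LA+NTP, 1238 and 880 in PA and LA against Vehicle, 1192 and 1675 with NTP, and 5 for the interaction; members called were 0 in PA+NTP against LA+NTP, 1 in PA against Vehicle and 0 in LA against Vehicle. With log2(FPKM + 0.1) the interaction had 3 genes. In both, Acsl4 in PA+NTP against LA+NTP was 0.005 and Acsl1 in LA against Vehicle -0.005. The rebuilt NOISeq rule, which has no p-value, called 0, 0, 4, 7, 5 and 5 genes in the 6 comparisons of groups, in the order PA against LA, PA+NTP against LA+NTP, PA and LA against Vehicle, and NTP with PA and LA, and 0 members in each; Acsl4 in PA+NTP against LA+NTP was 0.008, and Acsl1 and Fabp4 in LA against Vehicle were -0.005 and -0.035. DESeq2 called 5 genes for the interaction. Without the filter on low counts, 1 member (PA against LA) and 2 (PA+NTP against LA+NTP) were called, and 41 genes for the interaction. With no limit on fold, 1569, 2082, 6411, 5824, 6306 and 7257 genes and 2, 3, 4, 5, 6 and 5 members passed, in the order above; the limit on fold alone makes this change.

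The replicate numbers of the labels mark no stated pairing, and the correlations of same-numbered libraries ran from -0.069 to 0.127, so the numbers were not taken as pairs, although replicate 1 was the higher library in all 5 groups for Fabp1 and for Slc27a2. The numbers carried by the deposited files also differ from those of the labels, which were followed. With a replicate block, members called were 1 in PA against LA and 2 in PA+NTP against LA+NTP, the added member being Fabp1 (-1.30, adjusted p = 0.00771, and -1.16, adjusted p = 0.00329), and the interaction had 1 gene. Fabp1 was also called under the block in PA against Vehicle (-1.42, adjusted p = 0.000877), PA+NTP against PA (0.82, adjusted p = 0.031) and LA+NTP against LA (0.68, adjusted p = 0.0234).

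Leaving out 1 library gave 241 to 510 genes and 0 to 2 members in PA against LA (241 without PA replicate 2, 274 without LA replicate 1; 2 members without PA replicate 1 and 1 without LA replicate 2), 346 to 614 genes and 0 to 3 members in PA+NTP against LA+NTP (346 without LA+NTP replicate 1; 3 members without PA+NTP replicate 1, and 0 without PA+NTP replicate 2 or LA+NTP replicate 1), 1 to 3 members in PA against Vehicle (1 without Vehicle replicate 1), and 0 to 5 genes for the interaction, where 5 came without PA replicate 2. A lone library is then assumed to vary like the other groups. Ranges that crossed 0 were those of Cd36 (-0.061 to 0.003) and Slc27a4 (-0.044 to 0.083) in PA against LA, Acsl4 (-0.079 to 0.044) in PA+NTP against LA+NTP, Fabp4 (-0.542 to 0.203) in PA against Vehicle, Fabp1 (-0.523 to 0.449) and Fabp4 (-0.316 to 0.429) in LA against Vehicle, and Fabp1 (-0.075 to 2.046) in PA+NTP against PA. The lowest counts among the members were 48 for Fabp1, in PA replicate 2, and 40 for Fabp4. Slc27a2, Acsl1 and Acsl5 overlap a gene on the other strand (Gm26697, Gm45244 and Zdhhc6).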
